A study of Mus musculus with 9 samples.

Results

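The genes described here are 45 enzymes and regulators by which hepatocytes break down amino acids and pass their nitrogen to the first steps of the urea cycle, together with *Dpys* of pyrimidine breakdown. They were chosen by name and found through the GENCODE M1 annotation, which lists 37310 genes on NCBIM37, the assembly of mm9. All 45 symbols matched 1 gene each. Of these, 33 had a row in both deposited tables, 1 (*Uroc1*) had a row in the table of shRNA 1 alone, and 11 had no row in either. The cells were AML12, an immortalized hepatocyte line from mouse liver, grown with insulin, transferrin, selenium and dexamethasone in the medium. They carried a control hairpin, *Srrm2* shRNA 1 or *Srrm2* shRNA 2 delivered by lentivirus for 5 days, with 3 libraries in each of the 3 groups. SRRM2 is a scaffold protein of nuclear speckles, nuclear bodies rich in splicing factors, and the study asked what its loss did to the genome and to gene expression.

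Each table holds 1 mean normalized count per gene, made by the authors by averaging over the 6 libraries of a comparison, control and shRNA 1 in one and control and shRNA 2 in the other. These pooled means are the values given below. They carry no error. Values of single libraries were not used here, so no replicate spread could be given and no test was run. A pooled mean cannot tell control from depleted cells, so whether any of these genes rose or fell upon *Srrm2* knockdown is not described here. The depth of a single library is unknown, and the pooled means summed to 6144608 in the shRNA 1 table and 6393456 in the shRNA 2 table. *Srrm2* itself had pooled means of 3428 and 3759, which cannot check the knockdown. Of the 12 hepatocyte markers examined, 9 were in both tables, and their pooled means were uneven. *Alb* (2151 and 1814), *Ttr* (2497 and 2640) and *Hnf4a* (1498 and 1624) were high, *Fgb* (122 and 84.3) and *Apoa1* (39.4 and 38.9) lower, and *Ahsg* had 7.92 and 5.11. *Apoa2*, *Cyp2e1* and *Asgr1* were in neither. Among markers of other cells, 5 of 6 ductal genes, 3 of 6 mesenchymal and stellate genes, 3 of 5 macrophage and leukocyte genes and 0 of 4 endothelial genes were in both tables. The summed pooled means, not divided by gene length, were 27045 and 29417 for the hepatocyte list, mostly *Apob*. They were 8933 and 9524 for the ductal list, led by *Spp1* and *Krt19*, and 4389 and 4369 for the mesenchymal list, nearly all *Vim*. The macrophage and leukocyte list had 56.6 and 62.6. Per kb of exon the ductal list had a higher median than the hepatocyte list, over the genes with rows alone. Single genes overlapped, with the ductal *Cftr* at percentiles 12.8 and 14.6 and the hepatocyte *Apob* at 99.1 and 99.2. The median percentile among all listed genes was 87.0 and 89.2 for the ductal list and 77.2 and 79.0 for the hepatocyte list. It was 8.10 and 5.48 for the mesenchymal list and 15.5 and 15.5 for the macrophage and leukocyte list. The part of these markers in the levels below was not tested. In bulk RNA such as this, fewer cells with a transcript and less of it in each cell cannot be told apart.

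Liver is the main site of amino acid breakdown. Aminotransferases move the amino group onto glutamate, glutamate dehydrogenase releases it as ammonia, and carbamoyl phosphate synthetase 1 and ornithine transcarbamylase bring it into the urea cycle, while the carbon skeletons are dismantled by separate routes for each amino acid. Several of these enzymes are made almost exclusively in differentiated hepatocytes, whereas others are found in most tissues.

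All 45 genes are protein-coding, and 73.3% of them were in both tables, against 55.9% of the 22380 protein-coding genes of the annotation. The lowest pooled mean listed was 1.56 in the shRNA 1 table and 1.92 in the shRNA 2 table. The 384 genes with a row in 1 table alone had a median of 2.60, and 100% of them were below 10. A gene with no row can therefore have had very few reads, but it may also have been left out by another filter of the authors, and these cannot be told apart. Together the genes held 0.318% of the summed pooled means in the shRNA 1 table and 0.296% in the shRNA 2 table. Of that sum, 65.7% and 65.8% came from the 4 highest genes, *Gldc*, *Glud1*, *Mat2a* and *Ahcy*, with *Gldc* alone at 29.6% and 27.5%. Levels were compared between genes as pooled mean per kb of exon. On this scale the 33 genes in both tables spanned a 1216-fold range in the shRNA 1 table and 2260-fold in the shRNA 2 table. Their median was 49.8 and 47.7 per kb, near the median of all listed genes (43.1 and 44.8 per kb). The set was spread towards both ends, with 7 genes above the 90th percentile of listed genes and 4 below the 10th in each table.

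**Figure D1:**
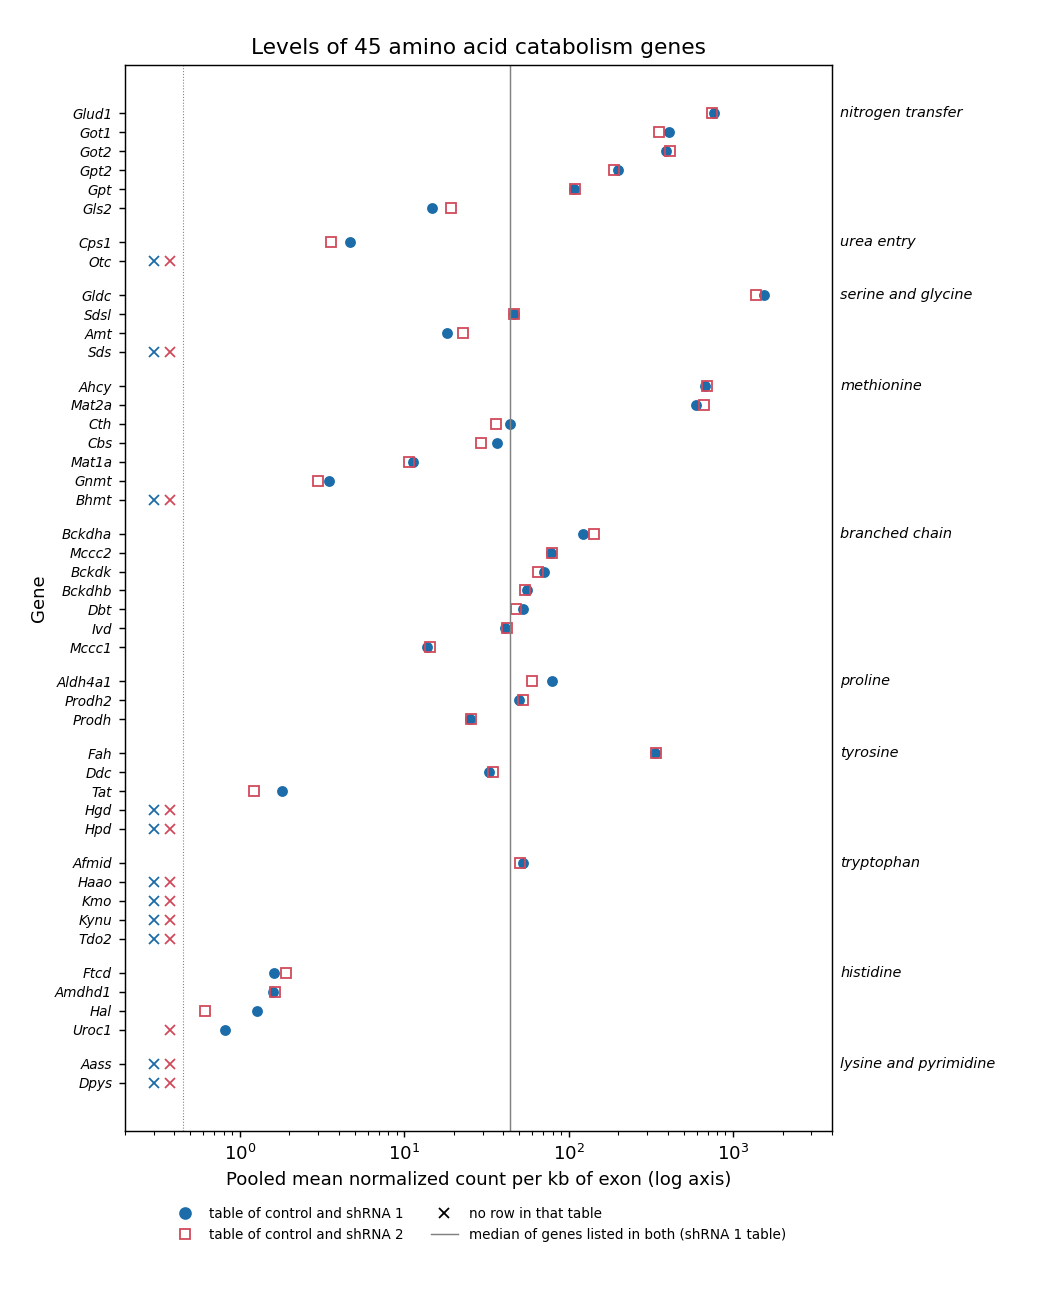
Pooled mean normalized count per kb of exon (log axis) of the 45 genes, grouped by the pathway named at the right. Filled circles stand for the table of control and shRNA 1, open squares for that of control and shRNA 2, crosses left of the dotted line for genes with no row, and the grey line for the median of all genes listed in both tables. *Gldc* lies at 1542 and 1386 per kb, while the histidine genes lie below 2 per kb and 4 of the 5 tryptophan genes have no row.

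CpG content around the start sites ran lower in the genes not listed in both tables, with overlap. Their matched promoters held 0 to 10 CpG. The range was 3 to 22 in genes listed in both tables below a pooled mean of 100, and 5 to 51 in the rest. CpG dinucleotides are dense at the promoters of most broadly active genes and sparse at many tissue-restricted ones. The upstream sequences of 3 genes, picked near the ends of the range of CpG counts in the set, show the contrast at its widest. They are *Mat2a*, which has the third highest pooled mean of the set, and *Otc* and *Hgd*, which have no row in either table. Each was taken from the RefSeq promoter (GRCm38.p6), found by exact match on NCBIM37, and cut to the stretch outside annotated exons, and CpG is in capitals. *Mat2a* is shown for the minus strand of chr6:72389553-72389800, with 29 CpG in 248 bases. *Otc* is shown for the plus strand of chrX:9829181-9829430 and *Hgd* for the plus strand of chr16:37579989-37580238, each with 1 CpG in 250 bases. All 3 stretches end at the base before the annotated gene start.
Mat2a: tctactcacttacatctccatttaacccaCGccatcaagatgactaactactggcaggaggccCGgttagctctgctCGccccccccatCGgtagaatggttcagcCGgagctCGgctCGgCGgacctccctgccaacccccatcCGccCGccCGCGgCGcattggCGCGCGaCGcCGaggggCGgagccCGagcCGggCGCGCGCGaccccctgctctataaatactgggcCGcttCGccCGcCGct
Otc: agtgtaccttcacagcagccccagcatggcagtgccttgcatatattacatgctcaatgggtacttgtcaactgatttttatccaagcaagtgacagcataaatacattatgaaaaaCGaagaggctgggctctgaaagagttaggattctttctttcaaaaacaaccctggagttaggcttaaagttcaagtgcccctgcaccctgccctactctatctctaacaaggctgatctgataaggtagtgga
Hgd: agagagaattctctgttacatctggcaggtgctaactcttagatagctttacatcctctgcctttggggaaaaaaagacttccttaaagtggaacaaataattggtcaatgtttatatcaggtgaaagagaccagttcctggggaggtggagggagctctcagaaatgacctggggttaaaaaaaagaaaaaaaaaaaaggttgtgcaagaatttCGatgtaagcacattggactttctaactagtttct

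A RefSeq promoter of 250 bases before to 50 bases after the start was matched for 35 of the 45 genes. A promoter was counted as CpG-rich at a ratio of observed to expected CpG of at least 0.6 and a GC content of at least 50%, and where a gene had several starts the one with most CpG was used. CpG-rich promoters were found in 10 of the 17 genes with a pooled mean of at least 100 in both tables, in 3 of the 9 genes listed in both tables below that level, and in 0 of the 9 genes not listed in both. All 13 genes with a CpG-rich promoter were in both tables, as were 13 of the 22 whose promoter was not CpG-rich. Over all genes with such a promoter, 71.7% of the 9064 listed in both tables and 17.8% of the 17961 others were CpG-rich, so the split was not particular to amino acid catabolism. Promoters were matched by gene symbol, which placed 9064 of the 13259 genes listed in both tables. A listed gene under another symbol would count among the others, which were not limited to protein-coding genes. *Gldc* went the other way, with the highest level of the set and 10 CpG in its promoter, and so did *Ddc* and *Prodh2*, with 5 each.

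**Figure D2:**
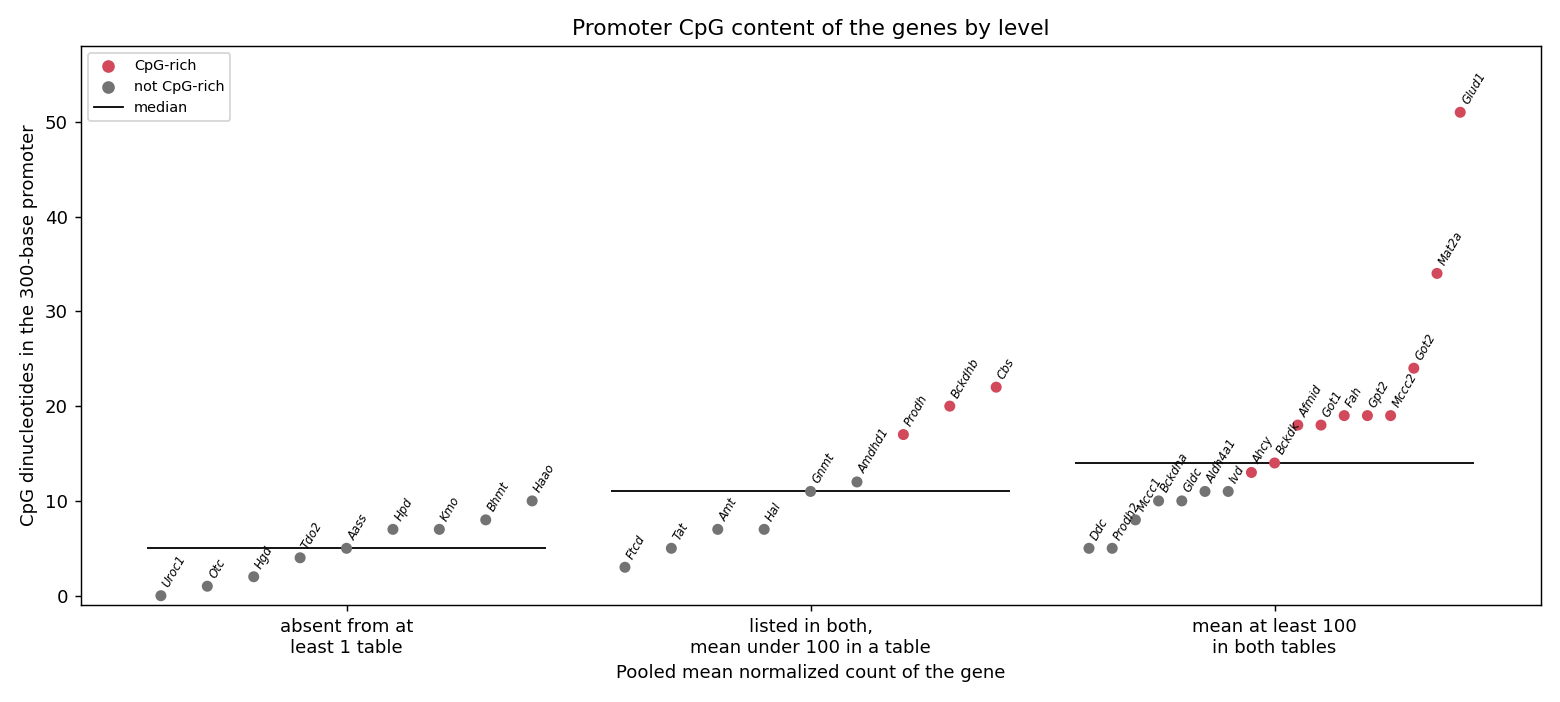
Number of CpG dinucleotides in the 300-base promoter (vertical axis) of the 35 genes with a RefSeq promoter, in 3 classes of pooled mean normalized count. Each point is a gene, red where the promoter is CpG-rich, and the line is the class median, which is 5, 11 and 14 from left to right.

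The 6 genes of the set grouped here as moving nitrogen onto and off glutamate were all listed. *Glud1*, glutamate dehydrogenase, on chromosome 14 from 35123913 to 35158330, had pooled means of 3128 in the shRNA 1 table and 3040 in the shRNA 2 table, or 765 and 743 per kb. The aspartate aminotransferases *Got1*, cytosolic, and *Got2*, mitochondrial, had 1038 and 1009 in the shRNA 1 table and 898 and 1063 in the shRNA 2 table. The alanine aminotransferase *Gpt2*, mitochondrial, had 1121 and 1071, and its cytosolic partner *Gpt* 192 and 196. These genes lay in the upper part of all listed genes, with percentiles per kb between 74.8 and 97.9. *Gls2*, the glutaminase named for liver, was lower, with pooled means of 51.4 and 67.0 and percentiles of 27.8 and 31.6.

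Of the 2 enzymes of urea entry, 1 was listed, at a low level. *Cps1*, carbamoyl phosphate synthetase 1, which lies on chromosome 1 from 67169600 to 67277833 and is among the most abundant proteins of liver mitochondria, had pooled means of 26.2 and 20.0, or 4.71 and 3.59 per kb. Its percentiles were 14.9 and 12.1. *Otc*, ornithine transcarbamylase on the X chromosome, had no row. Of the 6 further genes of the urea cycle and its carriers, 4 were in both tables and *Nags* and *Arg1* were in neither. *Nags* makes the activator of carbamoyl phosphate synthetase 1 and *Arg1* releases urea. *Ass1*, argininosuccinate synthase, had 104 and 175, and *Asl*, the lyase that follows it, had 288 and 321. These urea cycle genes were named after their values were seen.

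Serine and glycine enzymes held the highest gene of the set. *Gldc*, the decarboxylase of the mitochondrial glycine cleavage system, lies on chromosome 19 from 30172939 to 30249908 and had pooled means of 5790 and 5203, or 1542 and 1386 per kb, at percentiles 99.2 and 99.0. *Amt*, the aminomethyltransferase of the same system, had 31.1 and 38.8, or 18.2 and 22.7 per kb. The levels of these 2 partners thus stood far apart in both tables. *Sds*, serine dehydratase, had no row, while *Sdsl*, the serine dehydratase-like gene, had 69.9 in both tables. The 2 genes are neighbours on chromosome 5 with 3720 bases between them, on opposite strands.

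The methionine cycle held genes of high and of low pooled mean. *Mat2a*, which makes S-adenosylmethionine in most tissues, lies on chromosome 6 from 72382793 to 72389552 and had pooled means of 2026 and 2269. *Mat1a*, its counterpart in adult liver, on chromosome 14 from 41918670 to 41937701, had 36.5 and 34.4. *Mat2a* was 52.5-fold above *Mat1a* per kb in the shRNA 1 table and 62.4-fold in the shRNA 2 table. *Ahcy*, which hydrolyses S-adenosylhomocysteine, had 1896 and 1946. The methyl-consuming *Gnmt* had 4.19 and 3.60, and *Bhmt*, which remethylates homocysteine with betaine, had no row. The transsulfuration enzymes that turn homocysteine into cysteine lay between, with 123 and 98.6 for *Cbs* and 99.0 and 82.4 for *Cth*.

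All 7 genes of the set in branched-chain amino acid breakdown were in both tables. They ran from 13.7 to 122 per kb in the shRNA 1 table and from 14.3 to 142 in the shRNA 2 table. *Bcat1* and *Bcat2*, the aminotransferases that open this route, are outside the set, and neither had a row in either table. *Bckdha* and *Bckdhb*, the subunits of the branched-chain ketoacid decarboxylase, had pooled means of 217 and 83.1 in the shRNA 1 table and 252 and 80.3 in the shRNA 2 table. *Dbt*, the acyltransferase core of the complex, had 173 and 157, and *Bckdk*, the kinase that switches it off, 216 and 200. On the leucine branch, *Ivd*, isovaleryl-CoA dehydrogenase, had 227 and 233. *Mccc1* and *Mccc2*, the subunits of methylcrotonoyl-CoA carboxylase, had 143 and 171 in the shRNA 1 table. In the shRNA 1 table the pooled means of these 7 genes thus lay between 83.1 and 227. The low place of *Mccc1* per kb goes with its 10442 bases of annotated exon, against 2934 in its longest coding transcript.

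The 3 proline genes were all listed. *Prodh*, proline dehydrogenase, had pooled means of 86.8 and 88.1, and *Prodh2*, which acts on hydroxyproline, 122 and 129. *Aldh4a1*, which follows both enzymes, had 391 and 295. Per kb, *Prodh* was at 0.504 and 0.485 times the level of *Prodh2*.

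The tyrosine route was listed in part. *Fah*, fumarylacetoacetate hydrolase, the last enzyme of the route, lies on chromosome 7 from 91733669 to 91755232 and had pooled means of 707 and 714, at percentiles 93.9 and 93.6 per kb. *Tat*, the aminotransferase that opens the route and a classic glucocorticoid-induced liver gene, had 4.37 and 2.94. *Hpd* and *Hgd*, the dioxygenases between them, had no row. The first and last enzyme of the same route were therefore at opposite ends of the listed genes. *Ddc*, the aromatic amino acid decarboxylase, had 144 and 152.

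Tryptophan breakdown along the kynurenine route was the least represented of the larger groups. *Tdo2*, the dioxygenase that opens it, *Kmo*, *Kynu* and *Haao* had no row. *Afmid*, the formamidase of the second step, had 197 and 190. Its value is uncertain, because 136 bases of its exons overlap *Syngr2* on the same strand and others overlap *Tk1* on the opposite strand. Exons of *Gls2* and *Mccc1* also overlap a gene on the opposite strand, *Spryd4* and *A330050B17Rik*, and *Got2* has a named pseudogene, so these values are uncertain too. Histidine breakdown was close to the lower limit of the tables. *Hal*, histidine ammonia-lyase, had pooled means of 7.04 and 3.40, *Amdhd1* 3.84 and 3.97, and *Ftcd*, which hands the one-carbon unit to folate, 5.12 and 6.12. *Uroc1*, urocanase, had 2.83 in the shRNA 1 table and no row in the other. *Hal* and *Amdhd1* are neighbours on chromosome 10, with 4033 bases between them. *Aass*, the first enzyme of lysine breakdown, and *Dpys*, dihydropyrimidinase, had no row.

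**Figure D3:**
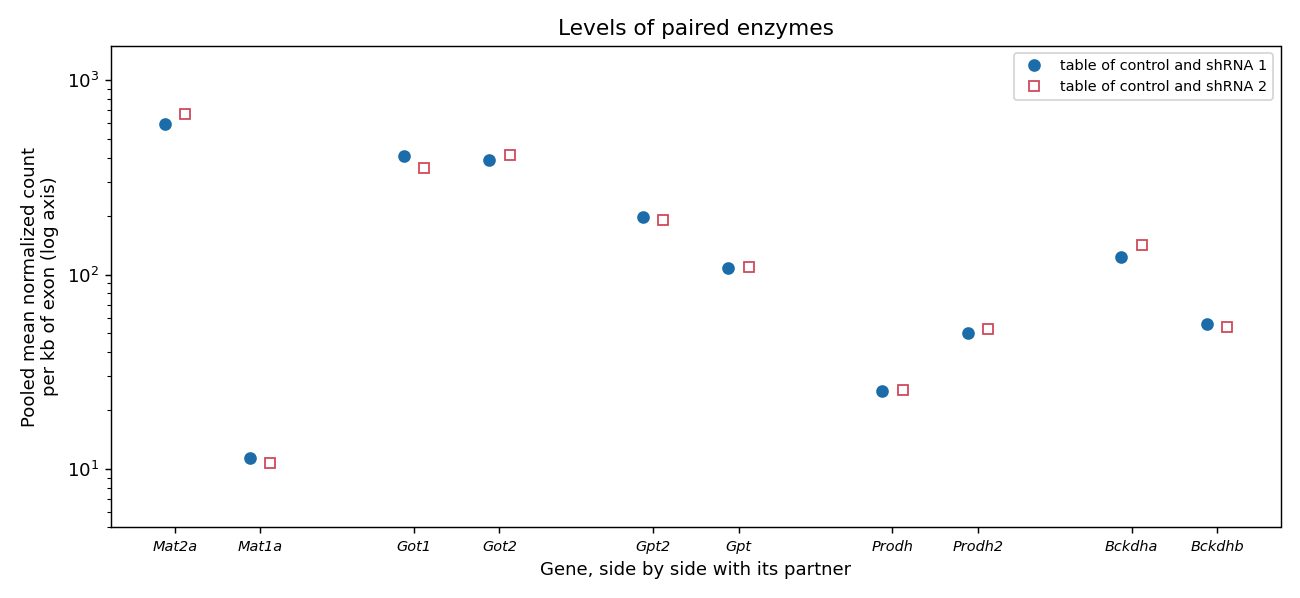
Pooled mean normalized count per kb of exon (log axis) of 5 pairs of related enzymes, with filled circles for the table of control and shRNA 1 and open squares for that of control and shRNA 2. *Mat2a* stands 52.5-fold and 62.4-fold above *Mat1a*, and *Got1* and *Got2* change places between the tables.

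Among paired enzymes, *Gpt2* was 1.84-fold and 1.73-fold above *Gpt* per kb, and *Bckdha* 2.19-fold and 2.64-fold above *Bckdhb*. *Got1* was 1.05-fold above *Got2* in the shRNA 1 table and at 0.860 times its level in the shRNA 2 table, so this pair has no fixed order.

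The tables of the hairpins were then set side by side. The ratio of a gene's pooled mean in the shRNA 2 table to that in the shRNA 1 table was divided by 1.05, its median over the 11451 genes that reached a pooled mean of 10 in each table. The same control libraries are in both means, so a difference between the hairpins appears damped: within this scaling, the ratio of the shRNA 2 to the shRNA 1 group means lies at least as far from 1 as the ratio given. Of the 33 genes, 28 had pooled means of at least 10 in both tables. The other 5, *Tat*, *Hal*, *Amdhd1*, *Ftcd* and *Gnmt*, were not compared. A log2 ratio above 0.32 or below -0.32 was met by 4 of the 28 (14.3%), all lower in the shRNA 2 table. Over all genes compared, 8.29% passed this limit, 3.88% higher and 4.41% lower. Without replicate error, 4 genes of 28 is a description alone. Without scaling, 2 genes were lower, *Aldh4a1* and *Cps1*, and 1 was higher, *Gls2*. The shares of all genes past the limit were taken with the centring alone, so these counts have none beside them.

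*Aldh4a1*, on chromosome 4 from 139178781 to 139205605, had the lowest ratio of the 28, at 0.719 (391 and 295 as pooled means). *Cps1* had 0.725, *Cbs*, on chromosome 17 from 31749568 to 31774144, 0.764, and *Cth*, on chromosome 3 from 157557212 to 157588041, 0.792. *Cbs* and *Cth* are the consecutive enzymes of transsulfuration, and both had the lower pooled mean in the shRNA 2 table. Neither passed the limit without scaling, where their log2 ratios were -0.317 and -0.265. In the other direction *Gls2* came closest to the limit, at 1.24, followed by *Amt* at 1.19 and *Bckdha* at 1.11. Of the 4 genes with the highest pooled means, *Gldc* had a ratio of 0.855, *Glud1* 0.924, *Ahcy* 0.977 and *Mat2a* 1.07. *Got1* had a log2 ratio of -0.28 and *Got2* one of 0.0031. The median log2 ratio of the 28 genes was -0.07, with quartiles of -0.19 and -0.0041, where all genes had quartiles of -0.10 and 0.10 around a median set to 0, and 21 of the 28 were below 0. This rests on the scaling: without it the median of the 28 was 0.0069 and 13 were below 0.

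**Figure D4:**
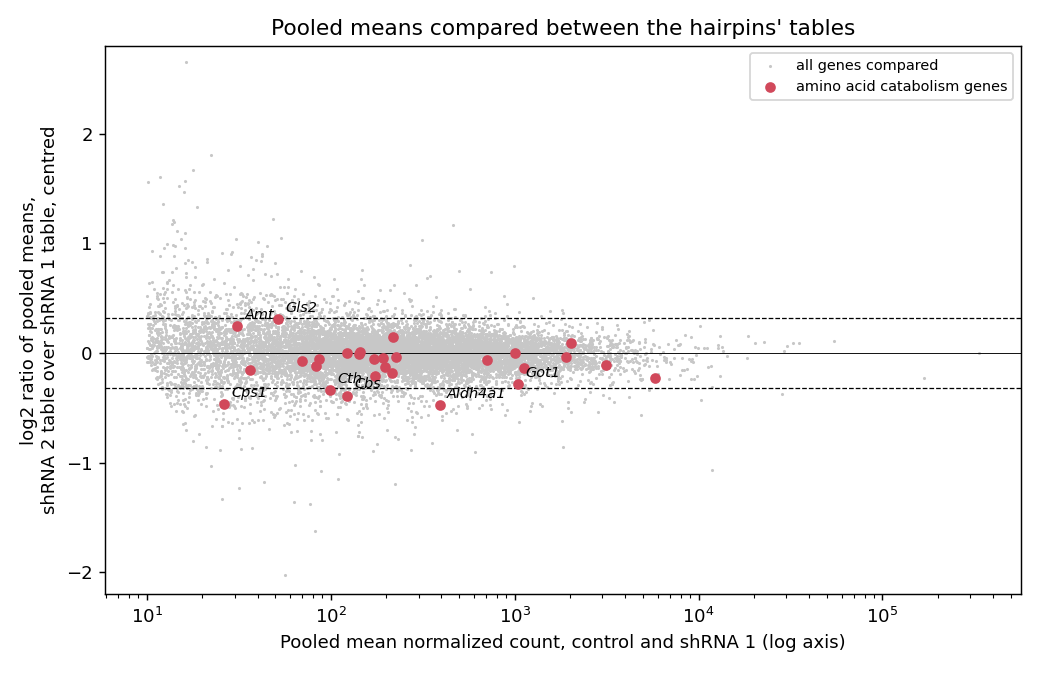
Centred log2 ratio of the pooled means, shRNA 2 table over shRNA 1 table (vertical axis), against the pooled mean normalized count of control and shRNA 1 (log axis). Grey points are the 11451 genes compared, red points the 28 amino acid catabolism genes among them, and dashed lines the limit of 0.322 in either direction. *Aldh4a1*, *Cps1*, *Cbs* and *Cth* lie below the lower line and no red point lies above the upper one, while without this centring *Cbs* and *Cth* would lie inside the lines and *Gls2* above them.

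A further 53 genes of the same pathways, such as amino acid synthesis, the later branched-chain steps and the rest of the urea cycle, give the surroundings. Of these, 44 (83.0%) were in both tables and 36 had pooled means of at least 100. Their median percentile per kb was 62.5 and 63.1, against 53.7 and 51.5 for the 33 genes of the set. The serine synthesis genes *Psat1* (3900 and 3729) and *Phgdh* (1993 and 1906) and the asparagine synthetase *Asns* (1149 and 1292) were among the highest, and were named after their values were seen. Of the 41 compared, 1 passed the limit as higher in the shRNA 2 table, *Ass1* at a ratio of 1.60. As lower, 3 passed it, *Hibadh* at 0.724, *Aldh6a1* at 0.745 and *Srr*, serine racemase, at 0.799. Over all genes compared, 3.88% were higher and 4.41% lower, so these counts are a description alone. *Hibadh* and *Aldh6a1* belong to valine breakdown, while *Hibch* and *Acad8* of the same route had 1.05 and 0.959. *Srr* lay just past the limit, at a log2 ratio of -0.324. Ratios of these genes without scaling are not given.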

How the data were processed

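Libraries were sequenced from AML12 cells, 3 with a control hairpin and 3 with each *Srrm2* hairpin, 9 in all. Groups came from the sample titles, since the descriptions of 2 control libraries name result tables of other hairpins. Nothing says whether the libraries of a group came from separate cultures. Per the methods, the authors aligned trimmed reads to mm9 by TopHat2 and discarded pairs without a unique, concordant placement. Reads per GENCODE M1 gene were then tallied with HTSeq and compared in DESeq2 (version 1.8.2) by the authors. Whether counting used the strand is not given in the sources used here. The authors deposited, for each hairpin against control, a table with a mean normalized count per gene. This signal is the count divided by a size factor, averaged by the authors over both groups. The other columns hold the authors' fold changes, their errors, test statistics and p-values, and were not used here. Single libraries have no values in these tables, hence no model was fitted and no error or test is given.

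Pooled means were divided by the merged exon length of each gene in GENCODE M1 for comparisons between genes. Ratios between tables were centred on the median over genes with a pooled mean of at least 10 in both. They were read at a ratio of 1.25, a log2 limit of 0.322. The 2 tables were normalized separately. The centring was tested on simulated data with counting noise alone and as many genes raised as lowered. Such data check the calculation and cannot show whether the centring suits these tables. Values are given for every listed gene of the set, in full for the highest, the lowest, paired enzymes and those past the limit. A planned pair of enzymes is not reported here. The genes and lists were chosen with earlier results of these data known. Alternatives were other lengths, scalings, minimum means and limits. Python 3.11.15, numpy 2.4.6, pandas 2.3.3, scipy 1.17.1 and matplotlib 3.10.9 were used.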

Additional observations from a re-analysis of the deposited data

How the results depend on the processing

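No replicate could be left out, and no paired analysis was possible because the tables hold 1 pooled mean per gene and no value per library. Among the settings run, 30 moved a value by at most 1.5 times and kept its direction, 8 moved it further and 2 turned its direction. A minimum mean of 100 left 19 genes in place of 33 and 1 in place of 4 past the log2 limit of 0.322. A limit at a ratio of 1.1 was passed by 13 genes and one at 1.5 by 0. Without scaling between the tables the median log2 ratio was 0.0069, the opposite sign. Scaling by the sum of shared genes gave 5 genes past the limit, 1 of them higher. The share of all genes past a limit was computed only for the centred ratios at 0.322. The counts under other settings therefore have no share to be read against. Per kb of the longest coding transcript, the log2 level of *Got1* over *Got2* in the shRNA 2 table was 0.055, the opposite order to that per kb of exon. On this length and with no length, *Gpt2* over *Gpt* was 1.51 and 2.54 in the shRNA 1 table and 1.42 and 2.45 in the shRNA 2 table. The genes of this pair differ in annotated exon length. Depth per library is unknown, so the precision of a low pooled mean cannot be given.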
